A study of Mus musculus with 12 samples.

Results

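The genes described here encode the nuclear subunits of the mitochondrial respiratory chain and ATP synthase. They were taken by name from the deposited table of mouse kidney arrays: every gene whose symbol begins with Nduf, Uqcr or Atp5, or with Cox followed by a digit from 4 to 8, together with Sdha, Sdhb, Sdhc and Sdhd. The rule used no measured value. It gave 89 of the 19938 genes that had a probe set of their own. These were 36 genes of complex I, 7 complex I assembly factors (Ndufaf), 4 genes of complex II, 8 of complex III, 17 of complex IV and 17 of ATP synthase. Cox7c, Ndufb4, Ndufb4b and Ndufs5-ps were named only on probe sets shared by several genes and were not analysed here.

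Biotin-labelled total RNA from kidney was read on 12 Affymetrix whole-transcript arrays, 4 in each of 3 groups. One group held wild-type (WT) mice of strain C57BL/6 injected with recombinant FGF23 at 500 ng per g body weight. The next held WT C57BL/6 mice given 100 µl saline, and the last held KL null mice of strain 129/SvEv/C57BL/6, also labelled as given 100 µl saline. All mice were female, kept for 5 to 8 weeks on standard diet, injected once into the peritoneum and killed 1 hour later. Their age was not given in the sources used here. KL null mice lack klotho, the co-receptor through which FGF23, a bone hormone that lowers phosphate, acts on the kidney. The protocol calls the WT mice littermates although the strain labels differ, so genotype and strain label cannot be told apart. Replicates are numbered without a statement that each was a separate mouse, and the p-values measure only the spread between these samples.

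The respiratory chain sits in the inner mitochondrial membrane. Complex I takes electrons from NADH and complex II from succinate, complex III passes them to cytochrome c, and complex IV hands them to oxygen. The proton gradient built on the way drives ATP synthase. Kidney tubules, the proximal tubule above all, are rich in mitochondria because reabsorption of sodium, phosphate and glucose is costly in ATP. Several complex IV subunits exist as a widely expressed form and a second form typical of muscle, brown fat, testis or lung.

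Values are log2 expression values, so a difference of 1 is a doubling of signal, and levels were not compared between probe sets. A gene was called when its limma p, adjusted over all 19938 genes, was below 0.05. The standard deviation of the values on an array ranged from 2.166 to 2.281, and it was lowest on WT FGF23 arrays 1 and 2. Klotho itself (Kl) checked the labels: it read between 9.66 and 9.80 on the KL null arrays and between 10.45 and 10.74 on the WT vehicle arrays. That was a fall of 0.89 ± 0.083 (SE, adjusted p = 1.75e-05), with no overlap. The change was -46.0%, so the value on this probe set dropped only in part, and the reason was not tested. As a check of the tissue, 16 proximal tubule markers averaged between 10.94 and 11.52 on every array.

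In KL null kidneys most respiratory chain genes lay within narrow limits of their WT level, and a few subunits, 4 of them in complex IV, differed. Of the 89 genes, 5 fell in KL null against WT vehicle, namely Uqcrc1, Cox5a, Cox6a1, Cox8b and Atp5d, and 1 rose, Cox6b2. The other 83 were not called. The 6 called genes were 6.74% of the members, beside 8.01% of all genes tested. Lower calls were 5.62% of members against 4.44% of all genes, and higher calls were 1.12% against 3.58%. At an unadjusted p below 0.05 there were 15 members (16.9%, all genes 21.3%), of which 13 were lower (14.6%, all genes 10.4%) and 2 higher (2.25%, all genes 10.9%).

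The differences of the members were small. Their median was -0.050, against 0.025 over all genes. It was -0.105 with arrays centred, -0.023 after a further quantile normalization, -0.093 without KL null array 1, -0.006 without KL null array 2 and -0.028 without KL null array 3. Of the members, 73 of 89 differed from WT vehicle by less than 0.2 on the log2 scale. The 95% confidence interval of the difference stayed within a 1.5-fold change either way for 86 members, 96.6% of them, against 89.3% of all genes. The exceptions were Uqcrc1, Cox8b and Cox6b2. These intervals are per gene and not widened for the number of genes. Negative differences were seen for 54 of 89 members (60.7%) and for 43.5% of all genes, and the member count was between 51 and 69 under the other scalings of the arrays. The 4 KL null arrays lay below the 4 WT vehicle arrays for 11 members (12.4%) and above them for 0. Of all genes 7.44% lay below without overlap and 6.35% above, 13.8% together.

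**Figure D1:**
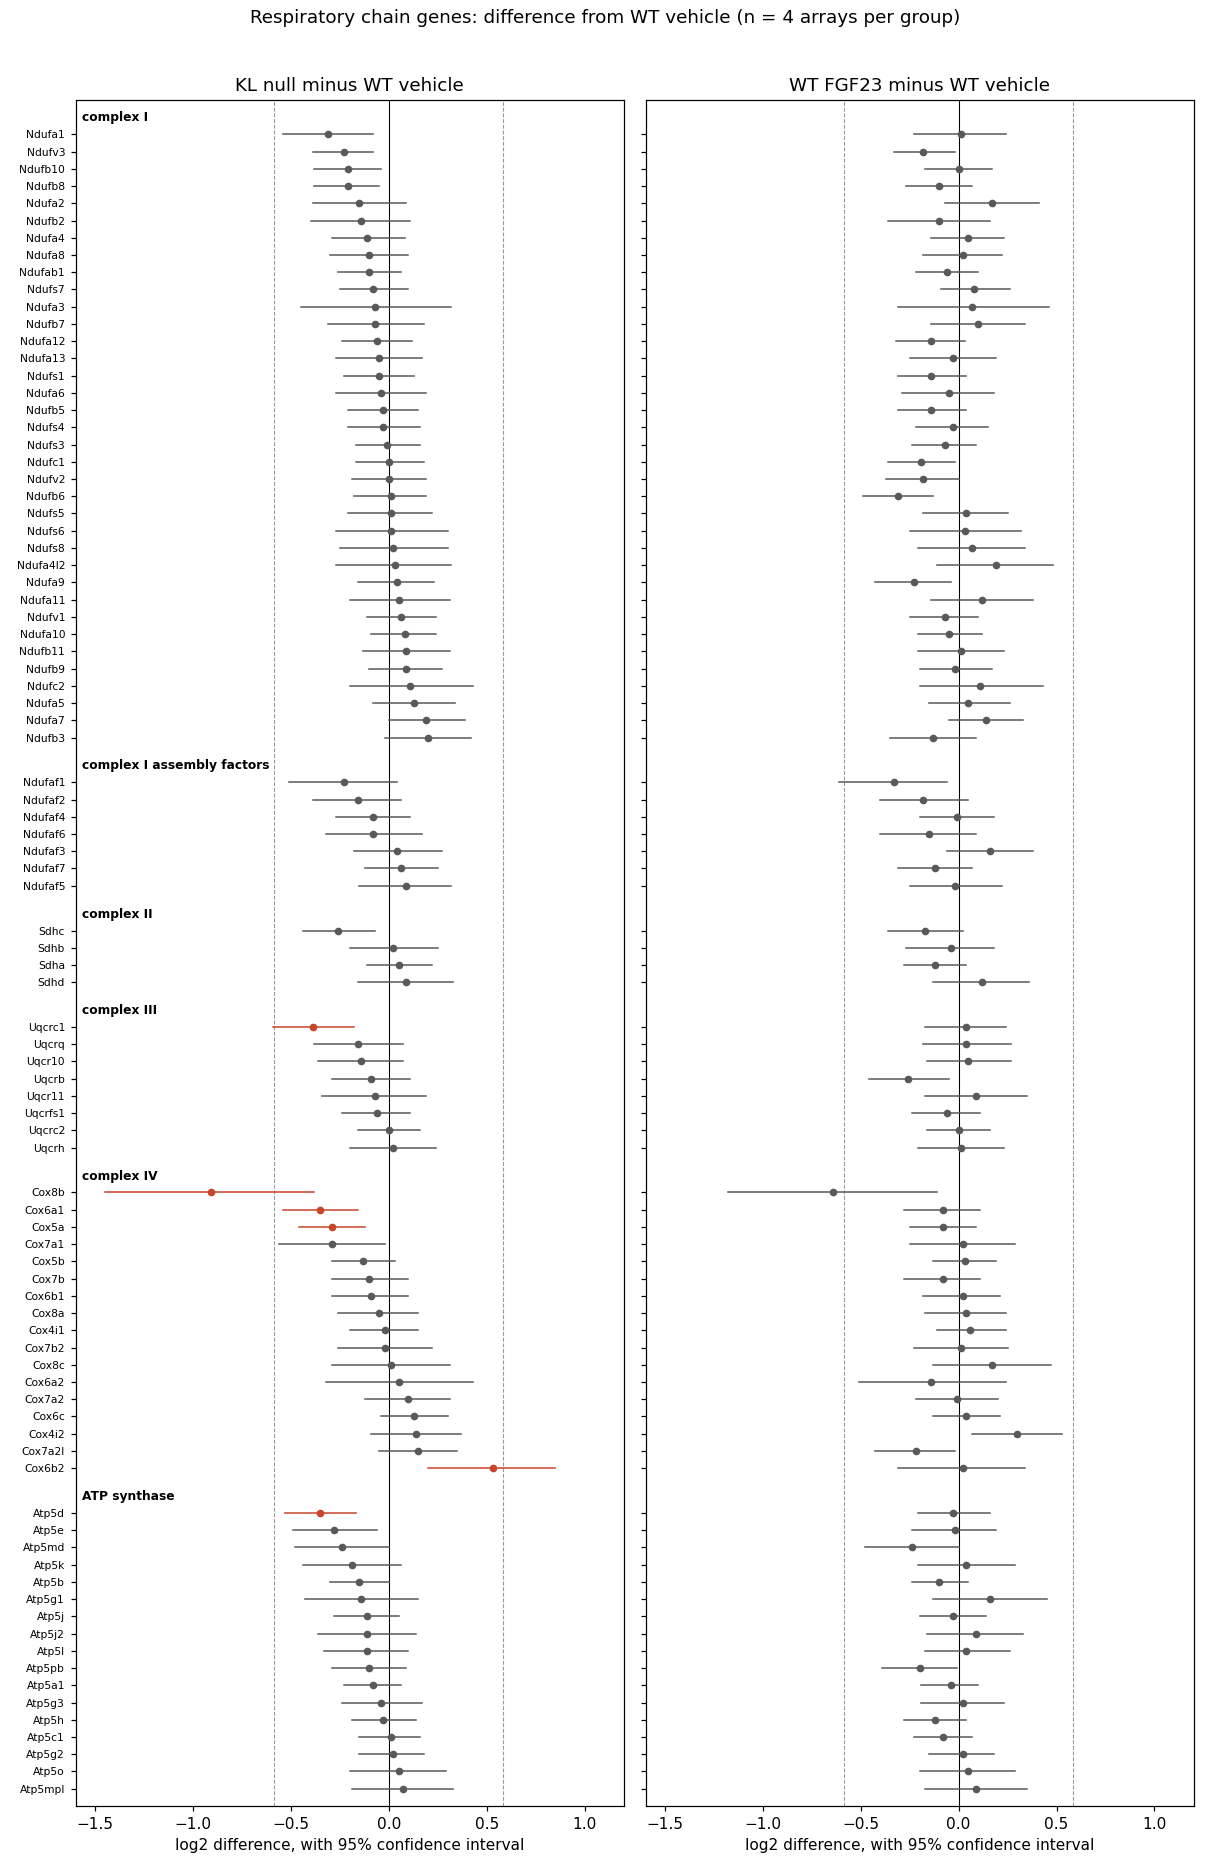
Each point is the log2 difference of a gene from the WT vehicle mean, in KL null (left) and in WT given FGF23 (right), with its 95% confidence interval, grouped by complex; dashed lines mark a 1.5-fold change and red marks adjusted p below 0.05 (n = 4 arrays per group). All 36 complex I intervals lie between the dashed lines in both panels, and the 6 red genes belong to complexes III and IV and ATP synthase.

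Complex I, the NADH dehydrogenase and the largest complex of the chain, had 0 of 36 genes called in KL null. An unadjusted p below 0.05 was reached by 5 of them, 4 lower (11.1%) and 1 higher (2.78%), against 10.4% lower and 10.9% higher of all genes. The median difference was -0.018. The core subunits differed little. Ndufs1, the iron-sulfur subunit of the NADH-oxidising arm, read 11.02, 11.03, 11.01 and 11.24 on the WT vehicle arrays and 11.19, 10.94, 11.01 and 10.96 on the KL null arrays. The groups overlapped, and the difference was -0.05 (adjusted p = 0.809). Ndufv1, which binds NADH and FMN, had means of 10.45 ± 0.09 in WT vehicle and 10.51 ± 0.05 in KL null (SD, n = 4), a difference of 0.06 (adjusted p = 0.736).

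Ndufv3, an accessory subunit of the same arm, had the lowest adjusted p of the complex. It read 9.19, 9.21, 9.28 and 9.12 in WT vehicle and 9.05, 8.90, 8.94 and 8.97 in KL null. Every KL null array lay below every WT vehicle array, by a mean of -0.23 ± 0.074 (SE), yet the adjusted p was 0.0648. The accessory subunit Ndufa1 had a larger difference, -0.31, and overlapping groups (adjusted p = 0.101). At the other end Ndufb3 stood at 0.20 (adjusted p = 0.29) and Ndufa7 at 0.19 (adjusted p = 0.232). Ndufa4, grouped here by name although its protein is now counted with complex IV, differed by -0.11 (adjusted p = 0.544). Its paralogue Ndufa4l2, known as a hypoxia-inducible gene, differed by 0.03 (adjusted p = 0.945).

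The 7 assembly factors, which build complex I and are not part of it, had 0 calls, 0 genes at an unadjusted p below 0.05, and differences between -0.23 (Ndufaf1, adjusted p = 0.334) and 0.09 (Ndufaf5, adjusted p = 0.734). Complex II, shared with the citric acid cycle, also had 0 of 4 called and 1 at an unadjusted p below 0.05. Sdha, the succinate-oxidising flavoprotein, read 11.78, 11.70, 11.80 and 11.81 in WT vehicle and 11.84, 11.89, 11.82 and 11.76 in KL null, a difference of 0.05 (adjusted p = 0.759). Sdhb, the iron-sulfur subunit, differed by 0.02 (adjusted p = 0.94). Sdhc, a membrane anchor, read 10.57, 10.58, 10.87 and 10.63 in WT vehicle and 10.39, 10.48, 10.33 and 10.43 in KL null. Its groups did not overlap, but its difference of -0.26 ± 0.088 (SE) had an adjusted p of 0.0936. The other anchor, Sdhd, differed by 0.09 (adjusted p = 0.756).

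In complex III, 1 of 8 genes was called, in the lower direction (12.5%, all genes 4.44%). Uqcrc1, a core subunit that faces the matrix, read 10.93, 10.85, 11.08 and 10.86 in WT vehicle. It read 10.72, 10.55, 10.46 and 10.44 in KL null and 11.11, 11.08, 10.77 and 10.91 in WT given FGF23. All 4 KL null arrays lay below all 8 WT arrays, with array 1 the nearest to them. The gene fell by 0.39 ± 0.097 (SE, adjusted p = 0.0236), a change of -23.6% with an interval from -0.59 to -0.18. Its partner in the core, Uqcrc2, had a mean of 11.88 in every group and a difference of 0.00 (adjusted p = 0.993). The Rieske iron-sulfur protein Uqcrfs1 differed by -0.06 (adjusted p = 0.73). Cyc1, the cytochrome c1 of the same complex, is outside the naming rule. It read between 11.09 and 11.21 in WT vehicle and between 10.65 and 10.99 in KL null, and it fell by 0.33 ± 0.084 (SE, adjusted p = 0.024).

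Complex IV, cytochrome c oxidase, held 4 of the 6 calls among its 17 genes (23.5%, all genes 8.01%), around a median of -0.025. Of these genes 3 were lower (17.6%, all genes 4.44%) and 1 was higher (5.88%, all genes 3.58%). Cox5a and Cox6a1, among the lower genes, encode widely expressed subunits. Cox5a, a subunit on the matrix side, read 9.80, 9.72, 9.77 and 9.84 in WT vehicle and 9.59, 9.54, 9.36 and 9.48 in KL null. The groups were apart, and the gene fell by 0.29 ± 0.079 (SE, adjusted p = 0.0357). Cox6a1, the form of subunit VIa found outside heart and skeletal muscle, read 10.82, 10.71, 10.75 and 10.77 in WT vehicle and 10.43, 10.54, 10.16 and 10.52 in KL null. It fell by 0.35 ± 0.091 (SE, adjusted p = 0.0288), with the lowest value on array 3 and no overlap. The muscle form of the same subunit, Cox6a2, differed by 0.05 with overlapping groups (adjusted p = 0.911).

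The other lower gene, Cox8b, had the largest difference among the members and the largest spread. It encodes the form of subunit VIII found in heart, skeletal muscle and brown fat of rodents. It read 7.02, 6.70, 6.58 and 5.87 in WT vehicle, 5.82, 5.42, 5.61 and 5.66 in KL null, and 5.33, 5.60, 6.05 and 6.61 in WT given FGF23. WT vehicle array 4 lay only just above KL null array 1, and the FGF23 arrays spanned most of both groups. The gene fell by 0.91 ± 0.249 (SE, adjusted p = 0.0348), a change of -47.0% with a wide interval from -1.45 to -0.38. The call held in 14 of 24 alternative analyses and in 6 of the 12 that left out an array. It was lost with the replicate number as a block (adjusted p = 0.0535). Cox5b, a zinc-binding subunit on the matrix side, differed by -0.13 (adjusted p = 0.362). The widely expressed form Cox8a differed by -0.05 (adjusted p = 0.825).

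None of the markers of muscle and brown fat was called by limma. At an unadjusted p below 0.05 there was 1 higher muscle gene (14.3%, all genes 10.9%) and 1 lower fat gene (16.7%, all genes 10.4%). The mean of 7 muscle genes (Ckm, Mb and others) lay between 5.29 and 5.53 in WT vehicle and between 5.43 and 5.70 in KL null. The mean of 6 fat genes lay between 4.62 and 4.93 in WT vehicle and between 4.64 and 4.74 in KL null. Ucp1, the uncoupling protein that defines brown fat, read 5.45, 5.02, 4.73 and 4.82 in WT vehicle and 4.66, 4.66, 4.67 and 4.50 in KL null. Its difference was -0.38 (adjusted p = 0.107). On WT FGF23 arrays 1 to 4 Ucp1 read 5.14, 4.97, 4.91 and 4.67. Of the 6 fat genes 4 had a negative difference in KL null, while Plin1 differed by 0.13 and Adipoq by 0.01. The part of these cells in the Cox8b result was not tested.

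Cox6b2, the testis form of subunit VIb, was the member that rose. It read 6.31, 6.97, 6.52 and 6.32 in WT vehicle and 6.65, 7.07, 7.37 and 7.14 in KL null. KL null arrays 2, 3 and 4 lay above all WT vehicle arrays, while KL null array 1 lay below WT vehicle array 2. The rise was 0.53 ± 0.152 (SE, adjusted p = 0.0459), close to the threshold, and the call held in only 9 of 24 alternative analyses. The widely expressed form Cox6b1 differed by -0.09 (adjusted p = 0.628). The remaining pairs of forms showed no call either. Cox4i1 differed by -0.02 (adjusted p = 0.913) and its lung and hypoxia form Cox4i2 by 0.14 (adjusted p = 0.518). Cox7a1, the muscle form of subunit VIIa, differed by -0.29 (adjusted p = 0.189), Cox7a2 by 0.10 (adjusted p = 0.66), and Cox7a2l, a factor that joins complexes III and IV, by 0.15 (adjusted p = 0.413).

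**Figure D2:**
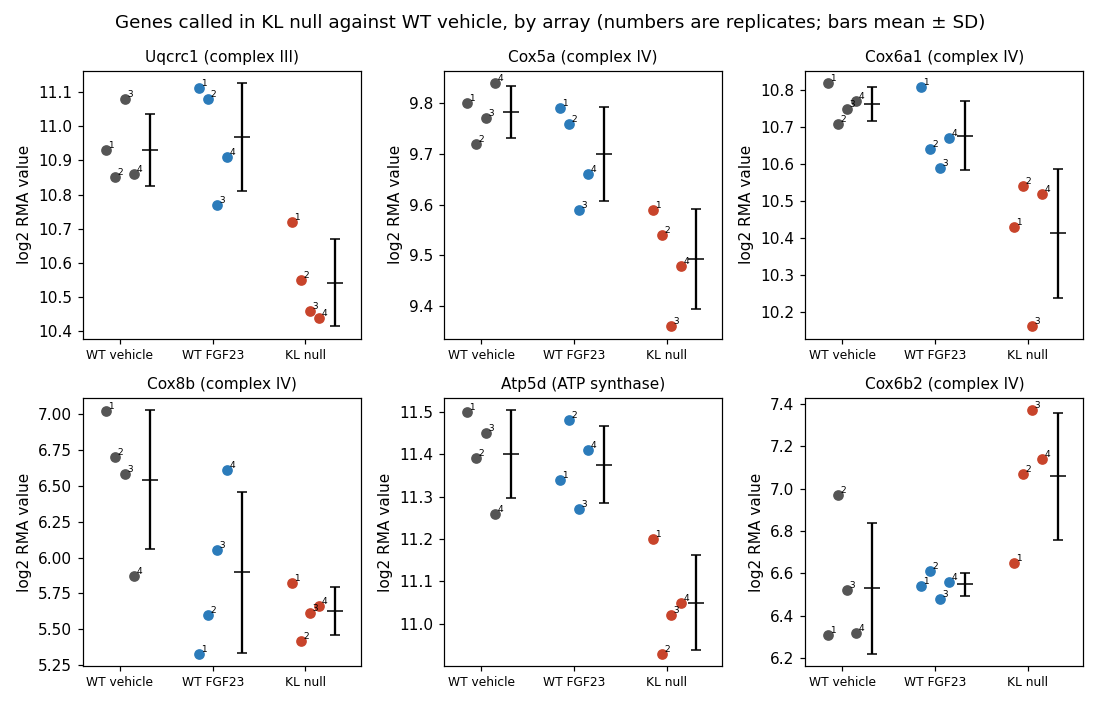
Log2 values of the 6 called genes on each array, with replicate numbers, and the mean ± SD of each group (n = 4). The KL null arrays lie below every WT vehicle array for Uqcrc1, Cox5a, Cox6a1, Cox8b and Atp5d, whereas for Cox6b2 WT vehicle array 2, at 6.97, lies above KL null array 1, at 6.65.

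ATP synthase had 1 of 17 genes called, in the lower direction (5.88%, all genes 4.44%). Atp5d, the delta subunit of the central stalk of the F1 motor, read 11.50, 11.39, 11.45 and 11.26 in WT vehicle. It read 11.20, 10.93, 11.02 and 11.05 in KL null and 11.34, 11.48, 11.27 and 11.41 in WT given FGF23. As for Uqcrc1, all 4 KL null arrays were below all 8 WT arrays. The gene fell by 0.35 ± 0.086 (SE, adjusted p = 0.0207), the lowest adjusted p of the 89 members, which is a change of -21.5% on the linear scale. Atp5e, the epsilon subunit of the same stalk, differed by -0.28 with an adjusted p of 0.114. It read 9.40, 9.43, 9.45 and 9.29 in WT vehicle and 9.43, 8.94, 8.99 and 9.10 in KL null, so array 1 lay among the WT values and the others below them.

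The catalytic subunits had small differences. Atp5a1, the alpha subunit, had the smallest within-group spread of the members (pooled SD 0.032) and means of 12.58 ± 0.02 in WT vehicle and 12.5 ± 0.04 in KL null (SD, n = 4). The groups did not overlap, the difference was -0.08, and the adjusted p was 0.534. Atp5b, the beta subunit, differed by -0.15 (adjusted p = 0.219), likewise without overlap. Of the 17 genes 13 had a negative difference, with a median of -0.112. The median of this complex was negative under every scaling of the arrays tried, from -0.070 after a further quantile normalization to -0.167 after centring each array on its median. So were the medians of complexes III and IV, of the assembly factors and of all 89 members. Complex I had a median of 0.003 after a further quantile normalization and negative medians otherwise. Complex II, in contrast, had a median of 0.039, which turned to -0.016 with arrays centred and to -0.014 with the spread of each array as a covariate.

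The 4 KL null arrays did not move together. On array 1 the median member lay 0.095 above its WT vehicle mean, and only 25 of 89 members were below that mean. On arrays 2, 3 and 4 the median member lay at -0.148, -0.092 and -0.065, and 72, 66 and 62 members were below. Array 1 had the lowest weight of the 12 arrays (0.483) in the analysis with array quality weights. Without it 8 members fell and 1 rose, against 5 and 1 with all arrays. Leaving out another array often removed the calls: 0 members were lower without WT vehicle 1, WT vehicle 3 or KL null 3. The lower count was 1 without KL null 2, 2 without KL null 4, and 3 without WT vehicle 4. Over all genes the number called also dropped in these analyses, to between 828 and 1473 from 1598. With 4 arrays a group, single calls near the threshold therefore depend on which arrays are present, while the differences of the 6 called genes kept their sign in every alternative.

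**Figure D3:**
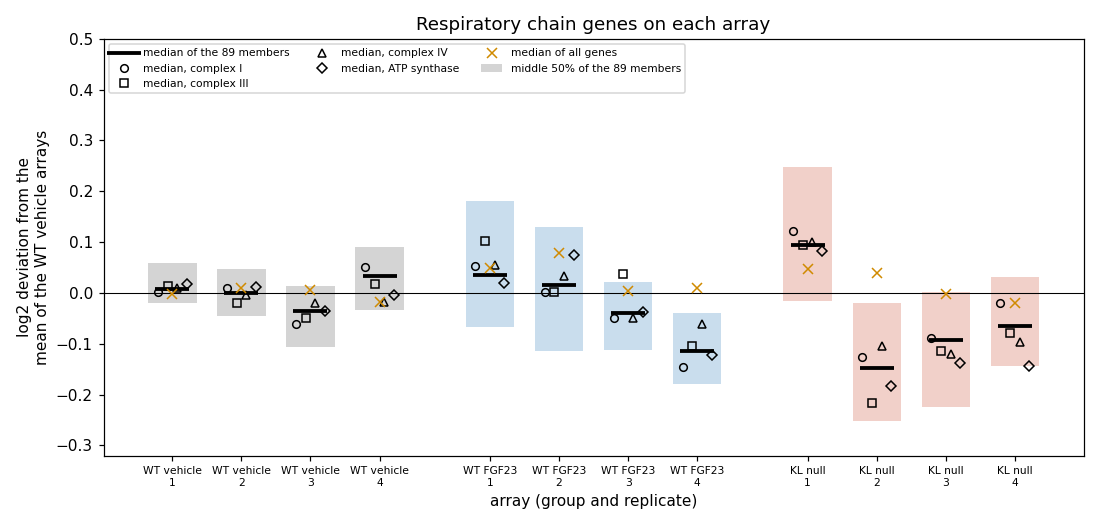
For each array, the deviation of the members from their WT vehicle mean on the log2 scale: the bar spans the middle 50% of the 89 members, the black line is their median, open symbols are medians of single complexes and the cross is the median of all genes. KL null array 1 lies at 0.095 and the other KL null arrays between -0.148 and -0.065, while WT FGF23 arrays run from 0.035 to -0.115.

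The promoters of the called genes were read for motifs of factors known to control respiratory genes. NRF1 (letters GCGCANGCG), ETS factors including GABP (CCGGAAG) and YY1 (AANATGGCG) were searched on both strands, with ERR (TNAAGGTCA), the CCAAT box (CCAAT) and SP1 (GGGCGG). RefSeq windows of GRCm38.p6, from 250 bases before to 50 after each annotated start, were found for 73 of the 89 members (78 windows). The NRF1 letters were in 28.2% of member windows, against 9.25% of the 19177 windows of measured genes. The ETS letters were in 23.1% against 12.1%, YY1 in 12.8% against 3.27%, ERR in 2.56% against 0.991%, CCAAT in 42.3% against 37.4% and SP1 in 43.6% against 49.2%. These are descriptions of sequence, and no test was made on them. The members with an NRF1 match had a median difference in KL null of -0.03, and those without it -0.07. With and without a match, the medians were -0.07 and -0.04 for ETS and -0.06 and -0.04 for SP1. They were -0.01 and -0.06 for YY1, -0.05 and -0.06 for CCAAT, and 0.02 and -0.06 for ERR, which only 2 members matched.

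The 250 bases before the start are shown for the 4 called complex IV genes, because that complex held most of the calls and these genes differ in the motifs they carry. Capitals mark matches to NRF1, ETS, YY1 or CCAAT on either strand, and SP1 matches are left in lower case.
Cox6a1: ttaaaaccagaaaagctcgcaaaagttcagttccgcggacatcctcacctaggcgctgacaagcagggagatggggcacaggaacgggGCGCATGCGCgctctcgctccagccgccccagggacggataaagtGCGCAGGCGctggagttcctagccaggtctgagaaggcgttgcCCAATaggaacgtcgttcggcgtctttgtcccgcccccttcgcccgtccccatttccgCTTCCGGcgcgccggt
Cox5a: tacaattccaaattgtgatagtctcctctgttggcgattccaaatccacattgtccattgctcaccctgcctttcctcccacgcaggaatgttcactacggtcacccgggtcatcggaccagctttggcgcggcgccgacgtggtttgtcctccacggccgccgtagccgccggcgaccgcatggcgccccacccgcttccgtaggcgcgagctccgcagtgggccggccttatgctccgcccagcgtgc
Cox8b: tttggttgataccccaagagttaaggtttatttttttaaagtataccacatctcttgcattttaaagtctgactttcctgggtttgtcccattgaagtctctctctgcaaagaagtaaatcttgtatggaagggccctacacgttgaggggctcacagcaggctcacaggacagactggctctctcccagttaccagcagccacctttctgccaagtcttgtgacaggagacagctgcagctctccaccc
Cox6b2: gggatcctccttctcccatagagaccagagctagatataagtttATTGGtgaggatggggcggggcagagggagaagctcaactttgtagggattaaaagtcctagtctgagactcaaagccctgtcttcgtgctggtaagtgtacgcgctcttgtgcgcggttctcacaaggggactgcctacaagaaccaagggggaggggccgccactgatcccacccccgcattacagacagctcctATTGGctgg

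These stretches lie, in the same order, at chr5:115348959-115349208 (minus strand), chr9:57520982-57521231 (plus strand), chr7:140900447-140900696 (minus strand) and chr7:4753095-4753344 (minus strand). Cox6a1 held NRF1 matches at both of its first capital runs, of which the first is a palindrome read on either strand, then a CCAAT box and an ETS match in reverse. Cox6b2 held a CCAAT box in reverse at 2 places. Cox5a and Cox8b held none of these 4 motifs in this stretch. Uqcrc1 held 3 NRF1 matches, all after its annotated start, and 26 bases around the overlapping pair are given at chr9:108936670-108936695 (plus strand), with the pair in capitals.
Uqcrc1: tccgctctGCGCATGCGCagcgcggc

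FGF23 given 1 hour before called no member: 0 of 89 genes passed the limma test against WT vehicle, where 0.0853% of all genes (17 genes) did. At an unadjusted p below 0.05 there were 11 members (12.4%), against 15.4% of all genes. Of these members 10 were lower (11.2%, all genes 4.97%) and 1 was higher (1.12%, all genes 10.4%). The median difference was -0.013, and 81 of 89 genes differed by less than 0.2. The interval stayed within 1.5-fold for 87 of 89 members, the exceptions being Cox8b and Ndufaf1. Groups did not overlap for 7 members (7.87%), beside 7.01% of all genes, with 6 members below WT vehicle (6.74%, all genes 2.92%) and 1 above (1.12%, all genes 4.09%). The sign of the median depended on scaling. It was 0.032 after a further quantile normalization, -0.085 with arrays centred and -0.097 with array spread as a covariate. Without both WT FGF23 arrays 1 and 2, it was -0.073.

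The member nearest to a call was Ndufb6, an accessory subunit of the membrane arm of complex I. It read between 9.92 and 10.22 in WT vehicle and 9.90, 9.69, 9.79 and 9.69 after FGF23. All 4 FGF23 arrays lay below the vehicle arrays, the nearest pair being 9.90 and 9.92, and the difference was -0.31 ± 0.087 (SE, adjusted p = 0.241). Uqcrb, which helps to bind ubiquinone in complex III, read 11.21, 11.07, 11.13 and 11.41 in WT vehicle and 10.95, 10.84, 11.10 and 10.91 after FGF23, overlapping at a single array. Its difference was -0.26 (adjusted p = 0.271). The assembly factor Ndufaf1 differed by -0.33 (adjusted p = 0.277). Cox8b differed by -0.64 (adjusted p = 0.276), with overlapping groups and an interval from -1.18 to -0.11.

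A single member had a higher value after FGF23 at an unadjusted p below 0.05. Cox4i2 read 6.02, 5.90, 6.10 and 5.73 in WT vehicle and 6.15, 6.47, 6.21 and 6.12 after FGF23, with no overlap. The difference was 0.30 ± 0.107 (SE, adjusted p = 0.263). Catalytic and core genes differed little from the vehicle level, and none was called. Atp5a1 differed by -0.04, Cox4i1 by 0.06, Uqcrc2 by 0.00, Sdha by -0.12 and Ndufv1 by -0.07, with adjusted p between 0.441 and 0.991. For Atp5b (-0.10, adjusted p = 0.493), Ndufs1 (-0.14, adjusted p = 0.428) and Ndufv2 (-0.18, adjusted p = 0.332), all FGF23 arrays lay below the vehicle arrays. By complex, the lowest adjusted p was 0.241 in complex I, 0.363 in complex II, 0.271 in complex III, 0.263 in complex IV and 0.305 in ATP synthase. The last of these belonged to Atp5pb, of the peripheral stalk, which differed by -0.20, and another probe set of this gene had the opposite sign. The assembly factor Ndufaf3 differed by 0.16 (adjusted p = 0.444).

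KL null and WT FGF23 were also compared with each other, a comparison that shares its arrays with both of the former. It called 5 members (5.62%), against 12% of all genes: 3 higher in KL null (3.37%, all genes 6.72%) and 2 lower (2.25%, all genes 5.25%). Uqcrc1 was lower by a mean of -0.43 (adjusted p = 0.0115), Atp5d by -0.32 (adjusted p = 0.0233), and Cox6b2 was higher by 0.51 (adjusted p = 0.0407). Ndufb6 read 10 on KL null array 1 and between 10.10 and 10.12 on the others, above all 4 FGF23 arrays, and differed by 0.32 ± 0.087 (SE, adjusted p = 0.0275). Against WT vehicle the KL null value of this gene differed by 0.01. Cox7a2l read 9.10, 9.26, 9.22 and 9.03 after FGF23 and 9.43, 9.42, 9.54 and 9.71 in KL null. These groups were apart by 0.37 ± 0.095 (SE, adjusted p = 0.0204), with the WT vehicle mean between them at 9.38. A second Cox7a2l probe set gave 0.29 in this comparison and was not called (limma adjusted p = 0.0701). Against WT vehicle it differed by 0.28 in KL null and by -0.01 after FGF23, so it did not place WT vehicle midway. Without both WT FGF23 arrays 1 and 2, none of the 89 was called.

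Other genes of mitochondrial function were read from lists of known members. Among 17 electron carriers and further nuclear subunits, 3 fell in KL null (17.6%, all genes 4.44%) and 0 rose, with a median of -0.113. Besides Cyc1 these were Coq9, of coenzyme Q synthesis (-0.33, adjusted p = 0.0495), and Gpd2, the mitochondrial glycerol-3-phosphate dehydrogenase. Gpd2 read 8.97, 9.16, 8.84 and 9.20 in WT vehicle and 7.63, 8.11, 7.82 and 8.15 in KL null, far apart. It fell by 1.11 ± 0.136 (SE, adjusted p = 0.000187). Cytochrome c (Cycs) differed by -0.30 (adjusted p = 0.105).

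Of 42 assembly factors outside the naming rule, 4 fell (9.52%, all genes 4.44%) and 0 rose, with a median of -0.094. At an unadjusted p below 0.05, 11 were lower (26.2%, all genes 10.4%) and 1 was higher (2.38%, all genes 10.9%). The 4 called were Atpaf2 for ATP synthase (-0.34), Ecsit for complex I (-0.40), and Coa3 (-0.42) and Higd1a (-0.36), which act on complex IV. Of 23 genes of the citric acid cycle and pyruvate dehydrogenase, 3 fell and 1 rose (17.4%, all genes 8.01%), with a median of -0.085. Ogdh (-0.28) and Dlst (-0.35), subunits of the oxoglutarate dehydrogenase complex, fell. The pyruvate dehydrogenase kinases went in opposite directions: Pdk3 fell by 0.92 ± 0.130 (SE, adjusted p = 0.0006) and Pdk1 rose by 0.38 ± 0.110 (SE, adjusted p = 0.0462). Of 32 genes of import and inner membrane organisation 1 fell, the outer membrane fusion protein Mfn2 (-0.40, adjusted p = 0.0068). That is 3.12% of the list, where 4.44% of all genes were called lower, and the median of the list was -0.014.

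Of 23 regulators of mitochondrial biogenesis, 2 fell and 1 rose (13%, all genes 8.01%), with a median of -0.010. Gabpb1, the beta subunit of the ETS factor GABP, read 8.22, 8.09, 8.50 and 7.85 in WT vehicle and 7.21, 7.17, 7.29 and 7.38 in KL null. The groups were apart, and it fell by 0.90 ± 0.172 (SE, adjusted p = 0.00486). The DNA-binding alpha subunit Gabpa differed by -0.06 (adjusted p = 0.723). Twnk, the helicase of mitochondrial DNA, fell (-0.44, adjusted p = 0.0105), and Ssbp1, which coats its single strands, rose (0.31, adjusted p = 0.0494). The coactivator Ppargc1a differed by 0.18 (adjusted p = 0.263), Nrf1 by 0.10 (adjusted p = 0.568), Tfam by 0.03 (adjusted p = 0.935) and Esrra by -0.33 (adjusted p = 0.127). Probe sets for the mitochondrially encoded COX2 and ND3 differed by -0.23 (adjusted p = 0.125) and -0.26 (adjusted p = 0.0936).

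Ribosomal proteins of both compartments were read too. The 77 mitochondrial ribosomal proteins had 5 lower calls (6.49%, all genes 4.44%), for example Mrpl57 (-0.47), and 2 higher (2.6%, all genes 3.58%), for example Mrpl30 (0.32). Their median was -0.062. At an unadjusted p below 0.05, 15 were lower (19.5%, all genes 10.4%) and 6 higher (7.79%, all genes 10.9%). The 63 cytosolic ribosomal proteins had 15 higher calls (23.8%, all genes 3.58%), 0 lower calls and a median of 0.233, for example Rps20 (0.48) and Rps18 (0.43). After FGF23, 0 genes were called in each of these 7 lists and in each of 10 lists of cell type markers. The lowest adjusted p in the 7 lists was 0.234, for Tfb2m and Mrpl45. At an unadjusted p below 0.05 the mitochondrial ribosome list had 15 lower (19.5%) and 0 higher genes. The assembly factors had 10 lower (23.8%), where 4.97% of all genes were lower. The other 5 lists had between 2 and 3 genes each at this cutoff, from 3.17% to 17.6% of a list, against 15.4% of all genes. The marker lists had between 0 and 5 genes each at this cutoff. The highest count was 5 of 7 muscle genes (71.4%), all higher after FGF23, where 10.4% of all genes were higher. These muscle genes had low values, and their mean lay between 5.50 and 5.83 after FGF23 and between 5.29 and 5.53 in WT vehicle.

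Markers of several renal cell types were called in KL null beside the respiratory chain genes. Of 16 proximal tubule markers 10 fell and 1 rose (68.8%, all genes 8.01%), with a median of -0.386. The transporter Slc22a7 had by far the largest fall (-4.61, adjusted p = 2.78e-06). The other markers that fell lay between -0.75 (Cyp4b1) and -0.27 (Slc34a1), among them the endocytic receptor Lrp2 (-0.50) and the transporter Slc13a3 (-0.72). The amino acid transporter Slc7a13 (3.52) was the one that rose. The mean of this list lay between 11.31 and 11.52 on the WT vehicle arrays and between 10.94 and 11.18 on the KL null arrays, without overlap. Of 14 markers of macrophages and other immune cells 7 rose, for example Lyz2 (1.71) and Ctss (1.58), and 1 fell (57.1%, all genes 8.01%). The marker that fell was Csf1r (-0.55, adjusted p = 0.0321), with no overlap, so the called markers of this list went both ways. The mean of these 14 markers lay between 6.66 and 7.15 in WT vehicle and between 7.11 and 7.67 in KL null. These ranges overlapped. Markers of the thick ascending limb and the distal convoluted tubule together had 2 higher and 1 lower of 10 (30%), and podocytes 1 lower of 5 (20%). The collecting duct (10 genes), endothelium (8), fibroblasts (7) and red blood cells (2) had 0 calls. At an unadjusted p below 0.05 these last lists had 2 (20%), 4 (50%), 1 (14.3%) and 1 (50%) genes, all lower. At the same cutoff podocytes had 4 of 5 lower (80%), where 10.4% of all genes were lower. In whole kidney, fewer cells of a type and less RNA per cell cannot be told apart. The part of these cell types in the lower respiratory chain genes was not tested.

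**Figure D4:**
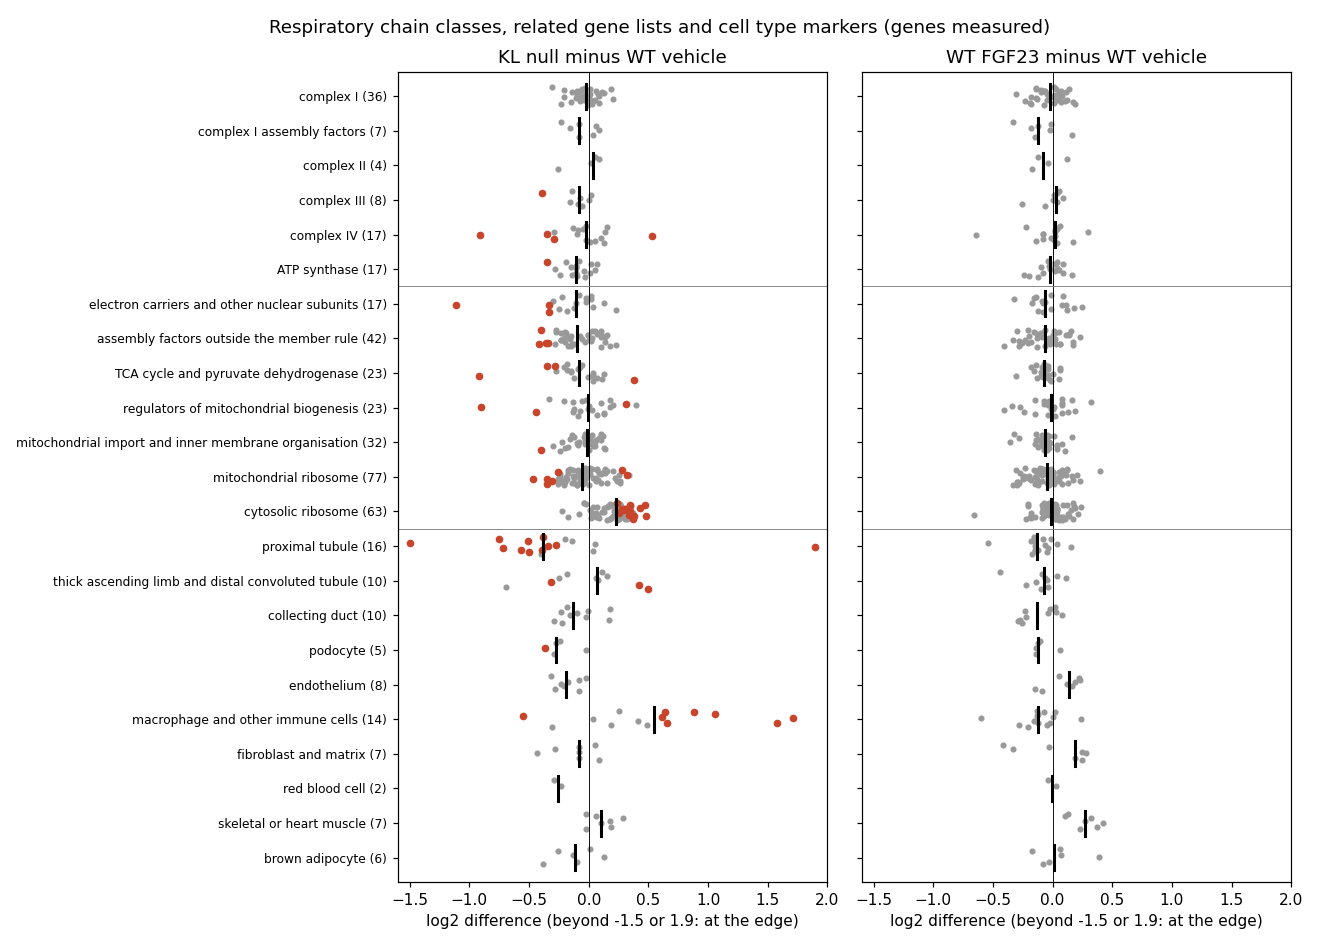
Log2 differences from WT vehicle for the members by complex (top), related gene lists (middle) and cell type markers (bottom), in KL null (left) and after FGF23 (right); each point is a gene, red where the adjusted p was below 0.05, the bar is the median and the count of genes is in brackets. The medians of the complexes lie between -0.120 and 0.039 in both panels, whereas in KL null the proximal tubule markers have a median of -0.386, the immune markers 0.549 and the cytosolic ribosome 0.233.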

How the data were processed

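The deposited values are log2 expression per probe set. The authors made them with RMA in Partek (version 6.2, as named in the submitters' processing notes). RMA corrects background, normalizes the arrays and summarises probes, and it compresses the folds of dim probe sets. How background was corrected is not given in the sources used here. No probe set was tested against its background, since scanner output was not used here, and the number of arrays limits the precision.

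The table held 28853 probe sets, of which 21789 had 1 symbol, 1621 several and 5443 none in the platform annotation. Each of 19938 genes was represented by its probe set of highest mean over the 12 arrays. The members had 114 probe sets, and 17 members had more than 1. All 89 members matched RefSeq by Entrez identifier. Another probe set of the gene had the opposite sign for Atp5pb in KL null against WT vehicle, and for Atp5l, Atp5pb, Cox5b and Ndufb11 after FGF23. None of these probe sets was called.

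A single limma 3.58.1 fit in R 4.3.3 (lmFit, eBayes, two-sided) used 3 group means and 9 residual degrees of freedom, with Benjamini-Hochberg adjustment over all genes. It was tested on simulated data. Errors of differences are standard errors. Python 3.11.15 with pandas 2.3.3 gave the tables, and matplotlib 3.10.9 the figures. The members, lists and tests were chosen with earlier results of these data known. The members named were the called ones (up to 10 per direction, or the 3 of smallest p where fewer were called), the smallest p per complex, and a list of core subunits and tissue forms. The plan also named 8 genes outside the rule and the 2 genes of smallest p in each list, but not all of the latter are given in the text. Other genes were named after their values were seen.

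Deviations of same-numbered arrays from their group means correlated between 0.143 and 0.259 for WT FGF23 with KL null. They correlated between -0.216 and 0.191 for WT FGF23 with WT vehicle, and between -0.137 and 0.169 for WT vehicle with KL null. The labels do not say what a shared number marks. The 24 alternatives covered scaling, moderation, filters, probe sets, the arrays fitted, a replicate block and leaving out each array.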

Additional observations from a re-analysis of the deposited data

Results flagged for a closer look

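Among the 31 members named by rule, 93 groups of 4 arrays were examined for a single array far from the other 3, and 4 groups held one. At 1 in 20, about 4.7 such groups are expected by chance. Ndufv3 read 9.12 on WT FGF23 array 1, while the other arrays of that group lay between 8.98 and 9.00. Ndufb6 read 10 on KL null array 1, below the others at 10.10 to 10.12. Uqcrb read 10.94 on KL null array 2, below the others at 11.15 to 11.19. Ndufs1 read 11.24 on WT vehicle array 4, above the others at 11.01 to 11.03. No explanation was tested for these values.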

How the results depend on the processing

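In KL null against WT vehicle, 5 members were lower and 1 was higher. The lower count was 9 with arrays centred on their medians, 8 with array spread as a covariate and 12 with array quality weights, and it ranged from 0 to 8 when single arrays were left out. The higher count was 0 after a further quantile normalization, with arrays centred, without moderation, with only the 2 groups compared and without both WT FGF23 arrays 1 and 2, and it ranged from 0 to 1 when single arrays were left out. After FGF23 the calls stayed at 0 in all 24 alternatives, and the median difference moved from -0.013 to -0.085 with arrays centred and to -0.097 with array spread as a covariate. In KL null against WT FGF23, 3 were higher and 2 lower. These counts became 5 and 7 with array weights, 5 and 5 with trended and robust moderation, 5 and 5 among genes with a mean of at least 6, and 0 and 0 without both WT FGF23 arrays 1 and 2. Without both KL null arrays 1 and 2 the lower count was 6. With single arrays left out, the higher count ranged from 0 to 3 and the lower count from 1 to 9. No difference of a called member changed sign. Fewer arrays lower the power of each such fit, and the cause of the other changes was not tested. Centring moved the median of all genes from 0.025 to -0.030 in KL null and from 0.037 to -0.035 after FGF23.

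With the replicate number as a replicate block, 4 members were lower and 1 was higher in KL null against WT vehicle, Cox8b being lost. There were 0 calls after FGF23, and 3 higher and 2 lower in KL null against WT FGF23. In that last comparison the block changed no count.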
